A study of Mus musculus with 12 samples.

Results

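The response of Zmym3 knockout (KO) spermatogonial stem cells (SSCs) to retinoic acid (RA) was measured by RNA-seq in 4 of the 12 libraries of the series, chosen by their labels: 2 of KO c-KIT+ cells and 2 of KO SSCs. The KO c-KIT+ cells were KO SSC cultures that had received 100 nM RA for 36 h, and the KO SSCs were cultures without RA. Both groups were male CBA/C57 cells from testes, labelled as 2 months old, grown on laminin, and both carry a Zmym3 allele disrupted with Cas9 and a pair of guide RNAs against the second exon, which leaves a frameshift. The same 2 groups of WT cells, WT c-KIT+ and WT SSC with 2 libraries each, were part of the fit, and the other 4 libraries of the series, from sorted spermatocytes, were not analysed here. The SSC lines came from KO mice and their WT littermates, and the sources used here do not say which line each library represents, whether the 2 libraries of a group were separate cultures, whether the SSC cultures received vehicle, or whether growth factors changed when RA was added. The p-values rest on the differences between the 2 libraries of each of the 4 groups, WT included, and on a spread shared across genes. Those differences may therefore be technical. No sort for c-KIT is described in the sources used here.

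SSCs sustain spermatogenesis by dividing without differentiating, under GDNF from Sertoli cells, which signals through the receptors RET and GFRA1. RA, made from vitamin A by aldehyde dehydrogenases and degraded by enzymes of the CYP26 family, enters the nucleus, binds receptors of the RAR family paired with RXR, and turns on genes with RA response elements. In the testis RA moves spermatogonia into differentiation, marked by the receptor KIT, and later induces Stra8, which mouse germ cells need for meiotic prophase. ZMYM3 is a zinc finger protein of the MYM type found in complexes with the histone demethylase LSD1.

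Zmym3 was reduced in each KO library but not absent. It was at 10.0 and 11.3 FPKM (fragments per kilobase of transcript, scaled to the mapped fragments of the library) in KO c-KIT+ cells and at 9.19 and 9.76 FPKM in KO SSCs, against 39.9 and 39.7 FPKM in WT c-KIT+ cells and 40.2 and 37.4 FPKM in WT SSCs. In mm9 the gene spans positions 98599723 to 98616024 of chromosome X, and its level in KO cells did not pass the test for RA (log2 fold change 0.15, SE 0.06, adjusted p = 0.0764, limma). Judged by the steps between low FPKM values, the 4 KO libraries had 0.935 to 1.081 times the depth of 1 spermatocyte library of the series, and each held 11296 to 11575 gene symbols at 1 FPKM or more. The 706 small RNA entries summed to 7181 FPKM in KO c-KIT+ replicate 1 and 253.7 FPKM in replicate 2, against 154.6 and 165.2 FPKM in the KO SSC libraries, and no small RNA is described below except 1 named beside a plot. The markers fixed for the cells matched their labels. Stra8, Kit and Cyp26a1 were high in KO c-KIT+ cells and Zbtb16 in KO SSCs, with values given below, and the germ cell helicase Ddx4 was at 111 ± 3.38 FPKM in KO c-KIT+ cells and 93.6 ± 0.609 FPKM in KO SSCs (mean ± SD, n = 2 each).

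RA moved a large share of the transcriptome of KO cells, mostly by small amounts. Of the 11981 genes tested, 2942 (24.6%) were higher and 1912 (16%) lower in KO c-KIT+ cells than in KO SSCs at an adjusted p under 0.01 (limma with Benjamini-Hochberg adjustment on log2 of FPKM + 1, a scale that understates changes of weakly expressed genes). The counts of each gene list below are to be read beside these shares. The median log2 fold change was 0.46 among the genes that rose and -0.51 among those that fell, and 54.1% of the 4854 called genes lay within 0.5 of 0. Both KO c-KIT+ libraries lay above both KO SSC libraries for 5633 genes (47%) and below them for 3665 (30.6%). On the scale of log2 of FPKM + 1, large changes were more often decreases than increases. Log2 fold changes past 1 were called for 157 genes that rose and 284 that fell, and past 2 for 10 that rose and 28 that fell. Of the FPKM total of the tested genes, genes called higher held 20.2% in KO c-KIT+ cells and 14.5% in KO SSCs. Genes called lower held 15.2% in KO c-KIT+ cells and 21.6% in KO SSCs. The number of genes under 1 FPKM in both KO SSC libraries and at 1 FPKM or more in both KO c-KIT+ libraries was 342, of which 25 reached 2.5 FPKM in both, and the reverse held for 167 genes. Such genes could pass the filter through the group where they were high, and their changes are given as a description. Both counts fell with any 1 KO library left out, which leaves 1 library in its group and fewer degrees of freedom. A smaller count in such a fit, here or below, need not be due to the library left out. Higher genes made up 60.6% of the calls on FPKM as deposited, and 47.9% (2398 higher and 2613 lower) with median-ratio scaling.

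**Figure D1:**
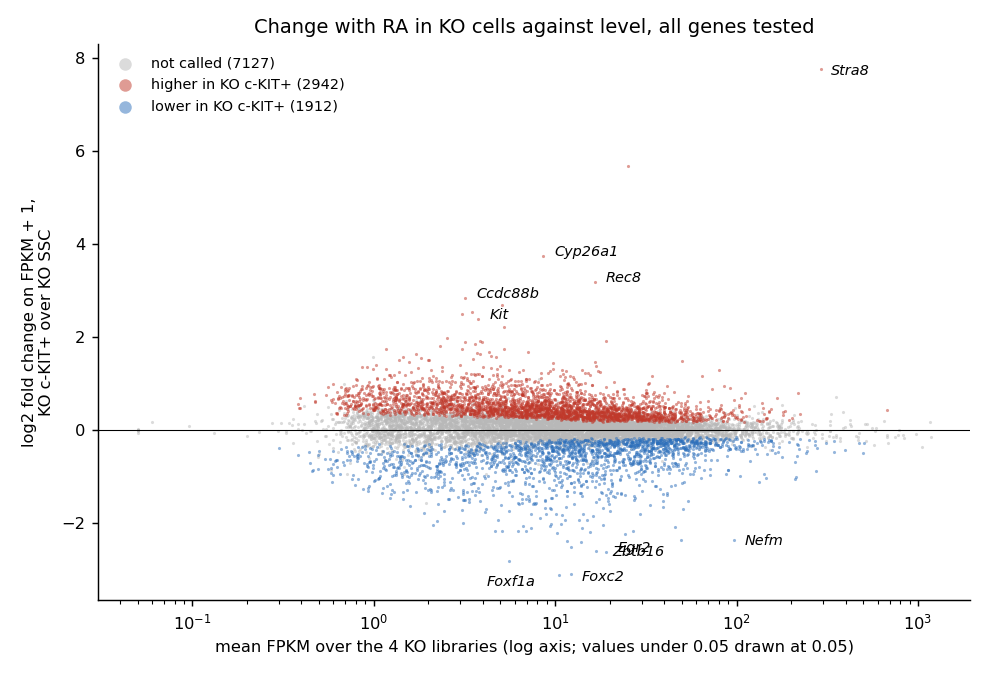
Log2 fold change on FPKM + 1 of KO c-KIT+ over KO SSC (vertical axis) against the mean FPKM of the 4 KO libraries (log horizontal axis), 1 point per gene tested, coloured by the call at an adjusted p under 0.01. Stra8 stands alone at 7.76, the unlabelled point below it at 5.68 is the small nucleolar RNA gene Snord15b, listed at 0 in both KO SSC libraries, and most called genes lie close to the zero line.

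The genes that gained most were led by Stra8, at 556 and 603 FPKM in KO c-KIT+ cells and 1.93 and 1.44 FPKM in KO SSCs, which is a ratio of means of 344 (log2 fold change 7.76, SE 0.11, adjusted p = 4.93e-09, limma). With RA, Stra8 ranked 16 among the genes tested by mean FPKM. Cyp26a1, which oxidises RA, was at 16.7 and 17.1 FPKM in KO c-KIT+ cells and at 0.411 and 0.271 FPKM in KO SSCs (log2 fold change 3.74, SE 0.08, adjusted p = 1.17e-07, limma). Rec8, the meiotic cohesin subunit that holds sister chromatids together, was at 30.5 and 30.8 FPKM in KO c-KIT+ cells and at 2.09 and 2.92 FPKM in KO SSCs (3.19, SE 0.12, adjusted p = 4.97e-07, limma). In these 3 genes the KO c-KIT+ libraries lay close together and far above both KO SSC libraries. Kit itself was at 7.14 and 6.92 FPKM in KO c-KIT+ cells and 0.483 and 0.576 FPKM in KO SSCs (2.39, SE 0.09, adjusted p = 3.92e-07, limma).

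The other large increases were in genes of varied kinds. Ccdc88b, a coiled-coil protein gene, was at 6.79 and 5.94 FPKM in KO c-KIT+ cells and at 0.0158 and 0.0401 FPKM in KO SSCs (log2 fold change 2.84), and Agpat3, an acyltransferase of phospholipid synthesis, at 9.54 and 9.67 FPKM in KO c-KIT+ cells and 0.662 and 0.639 FPKM in KO SSCs (2.68). Rgl3, a relative of exchange factors for the small GTPase RAL, rose by 2.53, Tcerg1l by 2.5, Fam57a by 2.22 and the homeobox gene Rhox9 by 1.97 on the log2 scale. Ly6k, a surface protein of the germ line, rose by 1.92, as did Shisa5, and the scaffold gene Shank2 (1.88), 4831426I19Rik (1.89) and the endonuclease gene Slx1b (1.84) completed the 15 largest outside the small RNA genes. The 15 were ranked among called genes with both KO c-KIT+ libraries above both KO SSC libraries. That separation was a condition of the choice.

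The largest decreases were led by a pair of forkhead genes. Foxf1a, a forkhead factor, was at 1.59 and 1.16 FPKM in KO c-KIT+ cells and 20.2 and 19 FPKM in KO SSCs (log2 fold change -3.12, SE 0.10, adjusted p = 2.82e-07, limma), and Foxc2, another forkhead factor, which marks stem cells in the mouse testis, was at 1.604 and 1.91 FPKM in KO c-KIT+ cells and 23.8 and 21.6 FPKM in KO SSCs (-3.10, SE 0.09, adjusted p = 1.88e-07, limma). Both forkhead genes were thus near the detection filter after RA. Ifitm1, a membrane protein gene, was at 0.483 and 0.796 FPKM in KO c-KIT+ cells and 9.80 and 11.3 FPKM in KO SSCs (-2.82). Next came Egr2 (-2.63), Phlda1 (-2.62), the repressor Bhlhe41 (-2.52), the glycosyltransferase B3gnt1 (-2.42), the exchange factor Fgd5 (-2.39), the neurofilament gene Nefm (-2.37), the glycogen phosphorylase Pygl (-2.24), sphingosine kinase Sphk1 (-2.20) and the IGF-binding protein Igfbp5 (-2.18). Nefm was an abundant transcript, at 29.1 and 32.5 FPKM in KO c-KIT+ cells and 163 FPKM in both KO SSC libraries.

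**Figure D2:**
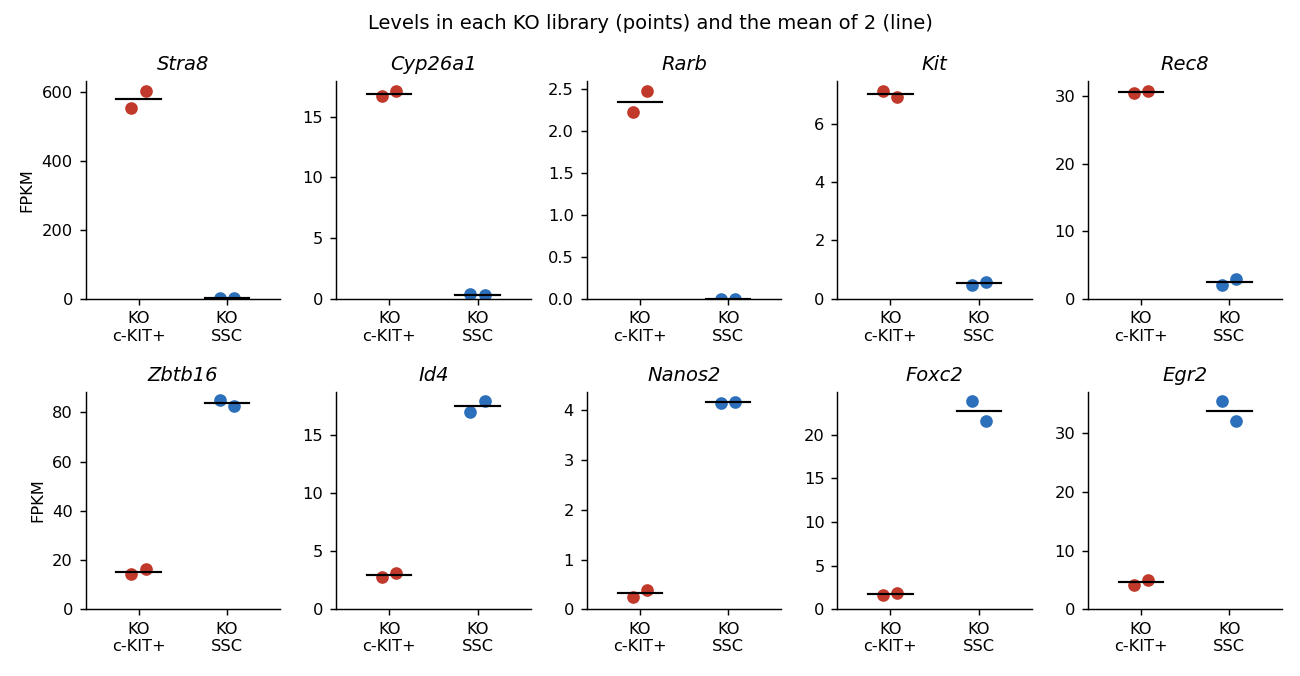
FPKM (vertical axes, each from 0) of 10 genes in the 2 KO c-KIT+ libraries (left, red points) and the 2 KO SSC libraries (right, blue points), with the mean of each pair as a line. In the upper row, including Rarb at 0 in both KO SSC libraries, KO c-KIT+ points lie above KO SSC points, and in the lower row below them.

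Changes in FPKM rather than in fold singled out abundant genes. After Stra8, the largest gains in mean FPKM were those of Ptma (197), Bola2 (118), the antioxidant enzyme Prdx5 (78.7), the RA-binding protein Crabp1 (67.2), the corepressor Aes (61.2), the cohesin subunit Stag3 (56.2), the synaptonemal complex protein Sycp3 (54.1), the basement membrane gene Nid2 (54.0) and the lysosomal membrane gene Lamp1 (53.3), which missed the threshold without KO c-KIT+ replicate 2 (adjusted p = 0.0246, limma) or either KO SSC library. Ptma and Bola2 missed the threshold when KO c-KIT+ replicate 2 was left out (adjusted p = 0.0397 for Ptma and 0.0647 for Bola2, limma) or KO SSC replicate 1 (0.0584 and 0.0712). Ptma also missed it without KO SSC replicate 2 or any 1 of the 4 WT libraries, and Bola2 without WT c-KIT+ replicate 2 or either WT SSC library. Ptma has processed copies that can share its reads. The largest losses were those of the ferritin heavy chain Fth1 (-171), the protease inhibitor Cst3 (-163), the proteoglycan Sdc4 (-149), the adhesion molecule Mcam (-143), Nefm (-132), the phosphatase subunit Ppp1ca (-117), the HSP90 cochaperone Fkbp4 (-112), the ATP synthase inhibitor Atpif1 (-99.8), the proteasome assembly factor Pomp (-99.6) and the G protein subunit Gnas (-99.5). Cst3 was at 181 and 207 FPKM in KO c-KIT+ cells and 348 and 365 FPKM in KO SSCs, and Sdc4 at 125 and 148 FPKM in KO c-KIT+ cells and 288 and 282 FPKM in KO SSCs. Fth1, which also has processed copies, missed the threshold without KO SSC replicate 2 (adjusted p = 0.0271, limma) or KO c-KIT+ replicate 1 (0.0153).

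Genes that handle RA responded in both directions. Of 12 tested genes of retinoid metabolism and binding, 6 rose, 2 fell and 4 did not pass, with a median log2 fold change of 0.34 beside 0.07 over all genes tested. Besides Cyp26a1, some carriers of RA rose. Crabp1 was at 105 and 121 FPKM in KO c-KIT+ cells and 40.5 and 51.8 FPKM in KO SSCs (1.28). Fabp5, which also binds RA, was at 2.14 and 2.01 FPKM in KO c-KIT+ cells and 0.377 and 0.440 FPKM in KO SSCs (1.13). The carrier Crabp2 did not pass (-0.06). The RA-synthesising enzymes split. Aldh1a2 rose by 0.49 on the log2 scale, while Aldh1a3 was at 1.03 and 0.750 FPKM in KO c-KIT+ cells and 5.55 and 4.98 FPKM in KO SSCs (-1.73, SE 0.10, adjusted p = 3.04e-06, limma). Rbp4, the retinol carrier of serum, fell by 1.38. The other RA-degrading enzymes Cyp26b1 and Cyp26c1 did not reach the filter. Cyp26a1 and Fabp5 passed it only through c-KIT+ libraries, which had received RA. The filter thus favoured genes that rise with RA, and the counts and median of this list are given as a description.

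Of 15 tested receptors and coregulators, 6 rose and 6 fell (median 0.16). Rarb, the RA receptor that is itself a classic RA target, was at 2.22 and 2.47 FPKM in KO c-KIT+ cells and was listed at 0 in both KO SSC libraries, so no fold is given (adjusted p = 1.65e-06, limma). Rara, the RAR gene with the highest FPKM in these cells, was at 15.1 and 16.5 FPKM in KO c-KIT+ cells and 13.3 and 14.1 FPKM in KO SSCs and did not pass the test (0.19, adjusted p = 0.132, limma). Rarg, the remaining RAR gene, was at 6.64 and 6.68 FPKM in KO c-KIT+ cells and 11.5 and 10.4 FPKM in KO SSCs (-0.64, SE 0.09, adjusted p = 0.000334, limma). The 3 RAR genes thus did not move together. Among the RXR partners Rxrb rose by 0.41, whereas Rxra (-0.68) and Rxrg (-0.93) fell. The coactivator gene Ncoa1 (0.85), the orphan receptor Nr2c2 (0.82) and the RA-induced corepressor Nrip1 (0.55) rose. Nrip1 passed the filter only through the WT c-KIT+ libraries, at 1.16 and 1.01 FPKM, and Rarb only through the KO and WT c-KIT+ libraries. With a filter at 5 FPKM 3 genes of this list were called higher.

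The promoters of Cyp26a1, Rarb and Stra8 are shown because Cyp26a1 and Rarb are classic RA targets and Stra8 had the largest increase. The classic RA response element is a direct repeat of a 6-base half-site with a 5-base spacer. The windows are the 250 bases before the RefSeq start site of build GRCm38.p6, read 5′ to 3′ on the gene's strand: chr19:37697558-37697807 (plus strand) for Cyp26a1, chr14:16575477-16575726 (minus strand) for Rarb and chr6:34920698-34920947 (plus strand) for Stra8. Capitals mark the direct repeat, or, in Stra8, single AGGTCA half-sites.
Cyp26a1: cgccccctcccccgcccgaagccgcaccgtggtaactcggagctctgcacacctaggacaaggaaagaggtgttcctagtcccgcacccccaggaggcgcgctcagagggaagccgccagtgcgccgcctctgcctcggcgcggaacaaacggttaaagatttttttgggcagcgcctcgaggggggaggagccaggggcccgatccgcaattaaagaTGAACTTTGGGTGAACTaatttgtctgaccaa
Rarb: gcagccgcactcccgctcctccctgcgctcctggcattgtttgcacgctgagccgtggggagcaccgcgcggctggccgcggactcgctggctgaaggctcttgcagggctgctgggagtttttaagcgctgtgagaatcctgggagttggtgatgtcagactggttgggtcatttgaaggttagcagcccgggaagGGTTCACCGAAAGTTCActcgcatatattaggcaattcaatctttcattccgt
Stra8: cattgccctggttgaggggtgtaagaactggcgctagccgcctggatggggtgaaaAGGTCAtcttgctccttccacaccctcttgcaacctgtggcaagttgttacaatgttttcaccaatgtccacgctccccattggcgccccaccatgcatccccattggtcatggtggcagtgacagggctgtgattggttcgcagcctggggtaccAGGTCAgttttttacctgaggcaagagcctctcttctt

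The half-sites searched were AGGTCA, besides it the form AGTTCA, then the form GGGTCA, and lastly the form GGTTCA, on both strands, from 250 bases before to 50 after the start, in the 8576 tested genes with a window in the table. The repeat with a 5-base spacer was in 3 of them (0.035%), and in 31 of 27025 windows in all (0.115%). Those 3 were Rarb, whose repeat begins 53 bases before the start, Cyp26a1, whose repeat lies on the opposite strand with its first printed base 32 bases before the start, and Blvrb. Blvrb, a biliverdin reductase gene, did not pass the test (log2 fold change 0.37, adjusted p = 0.0353, limma). The window of Stra8 held 2 single half-sites, at 194 and 38 bases before the start, and no direct repeat with a spacer of 1, 2 or 5 bases. Repeats with a spacer of 2 bases were in 0.117% of the tested genes, 0.237% of those called higher and 0.143% of those called lower. Repeats with a spacer of 1 base were in 0.303% of the tested genes, 0.332% of those called higher and 0.428% of those called lower. No matched gene called higher by over 1 on the log2 scale held either. A match in these windows is a description of the letters and shows no binding.

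Most listed RA targets of other tissues were low in these cells. Of 24 listed, 17 were under 1 FPKM in all 4 KO libraries. Some of these, such as Tgm2 and Nrip1, passed the filter only through the WT c-KIT+ libraries, which had received RA. The filter thus favoured genes that rise with RA, and their rise is given as a description. Of the 9 tested, 4 (44.4%) rose and 2 (22.2%) fell, beside 24.6% and 16% of all genes. The kinase-associated adaptor Skap2 was at 28.2 FPKM in both KO c-KIT+ libraries and at 15.2 and 15.7 FPKM in KO SSCs (0.83), and the transglutaminase Tgm2 was at 0.974 and 0.892 FPKM in KO c-KIT+ cells and at 0.191 and 0.126 FPKM in KO SSCs (0.74). Ret and Dusp4, which RA induces elsewhere, were among the strong decreases and are described with the stem cell genes. Of 11 tested Hox genes, whose 3′ members RA induces in the embryo, 3 (27.3%) rose and 1 (9.09%) fell. The share that rose was close to that of all genes, and the 3′ members Hoxb2 (-0.09) and Hoxb3 (0.26) did not pass. Hoxb6 (0.62), Hoxb4 (0.44) and Hoxb9 (0.37) rose and Hoxc13 fell by 0.59. With KO SSC replicate 2 or KO c-KIT+ replicate 2 left out, Hoxb6 was the only Hox gene called higher. Hoxb9 also missed the threshold without KO c-KIT+ replicate 1 or any WT library, and Hoxc13 did without KO c-KIT+ replicate 1 (adjusted p = 0.0414, limma) or KO SSC replicate 1 (0.0503).

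Stem cell genes fell widely. Of 39 tested genes of undifferentiated spermatogonia, 28 fell, 1 rose and 10 did not pass, with a median log2 fold change of -0.87. Zbtb16, the transcription factor PLZF that maintains the stem cell pool, was at 14.2 and 16.6 FPKM in KO c-KIT+ cells and 84.9 and 82.7 FPKM in KO SSCs (-2.37, SE 0.07, adjusted p = 1.88e-07, limma). Id4, an inhibitor of helix-loop-helix factors that marks stem cells, was at 2.77 and 3.11 FPKM in KO c-KIT+ cells and 17.0 and 18.0 FPKM in KO SSCs (-2.23). The RNA-binding proteins of the NANOS family dropped alike: Nanos2 was at 0.247 and 0.396 FPKM in KO c-KIT+ cells and 4.16 and 4.18 FPKM in KO SSCs (-1.97), and Nanos3 at 1.29 and 1.13 FPKM in KO c-KIT+ cells and 8.93 and 9.18 FPKM in KO SSCs (-2.19). Tcl1, an AKT coactivator, was at 16.4 and 17.1 FPKM in KO c-KIT+ cells and 71.6 and 77.9 FPKM in KO SSCs (-2.09). In all these genes the groups were far apart. The exception was Utf1, a chromatin protein gene, which rose by 0.66 and missed the threshold without KO c-KIT+ replicate 1 (adjusted p = 0.012, limma) or KO SSC replicate 2 (0.0129). In bulk RNA such as this, a smaller number of cells that express a gene and less RNA per cell cannot be told apart.

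The GDNF receptor fell unevenly. Ret, the signalling chain, was at 27.4 and 27.6 FPKM in KO c-KIT+ cells and 81.9 and 80.4 FPKM in KO SSCs (-1.53, SE 0.04, adjusted p = 1.88e-07, limma), whereas Gfra1, the ligand-binding chain, was at 34.1 and 35.1 FPKM in KO c-KIT+ cells and 48.7 and 49.95 FPKM in KO SSCs (-0.50, SE 0.05, adjusted p = 4.73e-05, limma). Genes induced downstream of RAS and ERK fell with it. Of 15 tested ERK feedback genes and targets, 12 fell and none rose (median -0.66). Phosphatases of ERK and other MAP kinases were lower: Dusp4 was at 12.5 and 12.3 FPKM in KO c-KIT+ cells and 48.6 and 44.2 FPKM in KO SSCs (-1.82), Dusp6 at 22.4 and 23.0 FPKM in KO c-KIT+ cells and 60.5 and 58.9 FPKM in KO SSCs (-1.36), and Dusp5 fell by 0.90. The feedback inhibitors Spry4 (-1.18) and Spry1 (-0.87), the ETS factor Etv5 (-0.75), which GDNF maintains in SSCs, and Phlda1 (3.73 and 4.24 FPKM in KO c-KIT+ cells, 29.3 and 29.99 FPKM in KO SSCs) also fell.

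Of 21 tested immediate-early genes, 12 fell and 5 rose (median -0.46). The early growth response factors Egr2, Egr3 and Egr4 had the largest decreases: Egr2 was at 4.17 and 5.07 FPKM in KO c-KIT+ cells and 35.4 and 32.0 FPKM in KO SSCs, Egr3 at 2.02 and 1.27 FPKM in KO c-KIT+ cells and 11.4 and 10.4 FPKM in KO SSCs (-2.18), and Egr4 at 20.9 and 21.5 FPKM in KO c-KIT+ cells and 53.3 and 48.0 FPKM in KO SSCs (-1.22). The antiproliferative gene Btg2 (-0.94) and the phosphatase Dusp1 (-0.87) fell too. Junb, a subunit of AP-1, was at 10.7 and 12.1 FPKM in KO c-KIT+ cells and 5.89 and 5.68 FPKM in KO SSCs (0.87), and Klf4 (0.54) and Fos (0.42) rose. The count of immediate-early genes that rose was 3 without KO c-KIT+ replicate 2 or without KO SSC replicate 2.

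More BMP, WNT and NOTCH components were called lower than higher, though the medians of both lists were close to 0. Of 26 tested genes of BMP, activin and TGF-beta signalling, 11 (42.3%) fell and 5 (19.2%) rose (3 without KO SSC replicate 1), beside 16% and 24.6% of all genes. Another 10 did not pass, and the median was -0.08. Id3, a target of BMP signalling, was at 8.41 and 9.66 FPKM in KO c-KIT+ cells and 45.7 and 43.4 FPKM in KO SSCs (-2.18), and the activin antagonist Fst at 2.18 and 2.09 FPKM in KO c-KIT+ cells and 13.1 and 12.1 FPKM in KO SSCs (-2.12). The inhibitory Smad6 (-1.08), the coreceptor Tgfbr3 (-1.17) and the BMP receptor Bmpr1a (11.8 and 12.04 FPKM in KO c-KIT+ cells, 23.7 and 24.7 FPKM in KO SSCs, -0.96) fell, whereas the protease Bmp1 (1.14) and the ligand Bmp8b (0.65) rose. Of 27 tested WNT and NOTCH genes, 10 (37%) fell, 4 (14.8%) rose and 13 did not pass (median -0.12). Axin2 (0.17), Lef1 (-0.16), Hes1 (0.01) and Hey1 (0.07) were among those that did not pass. The WNT receptors Fzd2 (7.75 and 8.44 FPKM in KO c-KIT+ cells, 26.4 and 25.04 FPKM in KO SSCs, -1.56) and Fzd3 (-1.24), the receptor Notch1 (-1.07) and the WNT antagonist Sfrp2 (-1.07) fell, and Fzd8 (0.87) and the coreceptor Lrp6 (0.46) rose.

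**Figure D3:**
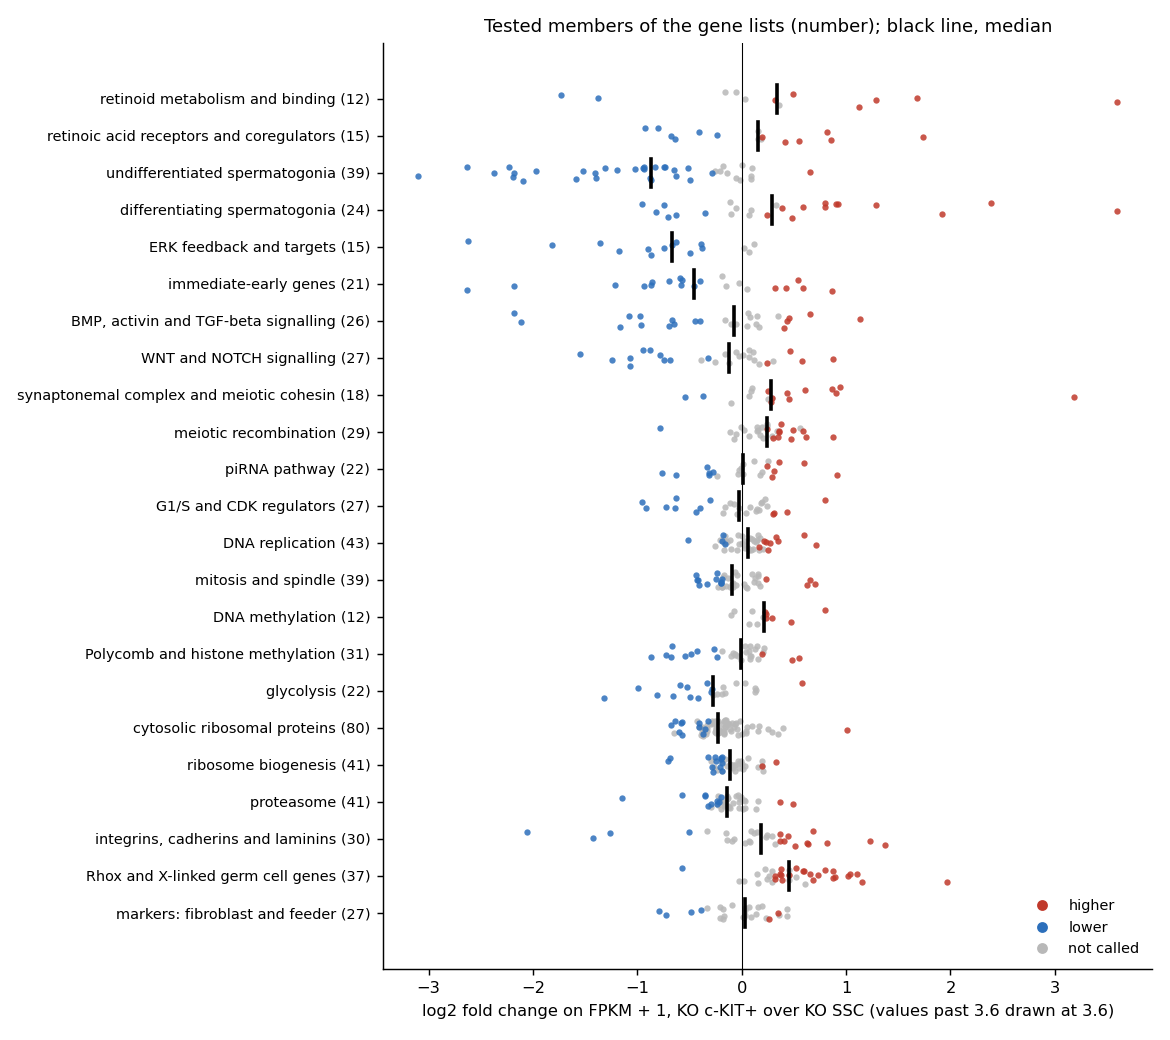
Log2 fold change on FPKM + 1 of KO c-KIT+ over KO SSC (horizontal axis) for the tested members of 23 gene lists, 1 point per gene, coloured by the call, with the number tested in parentheses and the list's median as a black line. The medians of undifferentiated spermatogonia (-0.87), ERK feedback (-0.66) and immediate-early genes (-0.46) lie furthest to the left, and that of Rhox and X-linked germ cell genes (0.46) furthest to the right.

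Differentiation genes changed less uniformly than stem cell genes. Of 24 tested genes of differentiating spermatogonia, 12 rose and 6 fell (median 0.29). Besides Stra8, Kit, Ly6k and Crabp1, the serine protease Prss50 (0.92), the orphan receptor Nr6a1 (8.25 and 9.23 FPKM in KO c-KIT+ cells, 4.30 and 4.13 FPKM in KO SSCs, 0.90) and the de novo DNA methyltransferase Dnmt3b (0.80) rose. Ccnd2, the D-type cyclin that is known to rise when undifferentiated spermatogonia become differentiating ones in the mouse testis, moved the other way and was at 90.6 and 100 FPKM in KO c-KIT+ cells and 188 and 185 FPKM in KO SSCs (-0.96, SE 0.06, adjusted p = 3.98e-06, limma). Sox4 (-0.82), Dmrtb1 (-0.71), whose protein acts at the switch between mitosis and meiosis in the mouse testis, and Ccnd1 (-0.63) also fell.

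Among meiotic genes, Stra8 and Rec8 had by far the largest increases. Of 16 tested genes of meiotic entry 6 rose and 4 fell, with a median log2 fold change of 0.04 beside 0.07 over all genes. Prdm9, which positions recombination hotspots, was at 1.95 and 2.05 FPKM in KO c-KIT+ cells and 0.658 and 0.623 FPKM in KO SSCs (0.87), the RNA-binding gene Rbm46 at 26.4 and 29.0 FPKM in KO c-KIT+ cells and 15.9 and 16.3 FPKM in KO SSCs (0.75), and the RNA helicase Ythdc2, needed for meiotic entry in mice, at 7.68 and 7.39 FPKM in KO c-KIT+ cells and 5.29 and 5.32 FPKM in KO SSCs (0.44). In the Polycomb-type complex that silences germ line genes, the subunits E2f6 and Max fell by 0.73 and 0.45, and Mga (0.04), L3mbtl2 (-0.001) and Pcgf6 (-0.19) did not pass. In the synaptonemal complex and cohesin list, 10 of 18 tested genes rose and 2 fell (median 0.28), 1 of them when KO c-KIT+ replicate 2 or either KO SSC library was left out. Sycp3, a lateral element protein, was at 113 and 112 FPKM in KO c-KIT+ cells and 54.3 and 62.5 FPKM in KO SSCs (0.94), Stag3 at 116 and 124 FPKM in KO c-KIT+ cells and 63.1 and 64.5 FPKM in KO SSCs (0.90), and Hormad1 at 11.3 and 9.20 FPKM in KO c-KIT+ cells and 5.65 and 4.71 FPKM in KO SSCs (0.86). Smc1b (0.61) and Syce2 (0.45) followed. Sycp1, the transverse filament protein, was at 62.4 and 53.5 FPKM in KO c-KIT+ cells and 44.9 and 49.6 FPKM in KO SSCs and did not pass (0.29, adjusted p = 0.0212, limma), though it did without KO c-KIT+ replicate 2 (adjusted p = 0.0077, limma). Smc3, a core subunit of every cohesin, fell by 0.54.

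Of 29 tested genes of meiotic recombination, 11 rose and 1 fell (median 0.24), and the number that rose was 6 without KO SSC replicate 2 and 7 without either KO SSC replicate 1 or KO c-KIT+ replicate 2. Dmc1, the meiotic recombinase, was at 15.1 and 17.3 FPKM in KO c-KIT+ cells and 10.4 and 10.5 FPKM in KO SSCs (0.58), and Tex15, needed for double-strand break repair in mouse spermatocytes, at 30.2 and 34.0 FPKM in KO c-KIT+ cells and 20.5 and 20.7 FPKM in KO SSCs (0.61). Mei1 (0.49) and 2410076I21Rik (0.47) rose as well. Trip13, the ATPase that removes HORMAD proteins from synapsed axes, was the gene that fell, at 13.98 and 14.4 FPKM in KO c-KIT+ cells and 25.2 FPKM in both KO SSC libraries (-0.78, SE 0.06, adjusted p = 1.27e-05, limma). Spo11, the enzyme of the breaks themselves, did not reach the filter. Of 22 tested piRNA pathway genes 6 (27.3%) were higher and 6 (27.3%) lower, beside 24.6% and 16% of all genes, and 3 were lower without KO SSC replicate 2. Pld6, a mitochondrial enzyme of piRNA production (0.92), and Tdrd3 (0.59) rose, and Tdrd5 (-0.76) and Piwil4, the nuclear PIWI protein of fetal germ cells (-0.63), fell.

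Of 25 markers of pachytene spermatocytes and spermatids, 16 were under 1 FPKM in all 4 KO libraries, among them the defining protamine genes Prm1 and Prm2 and the acrosomal gene Acrv1. Of 7 tested, 4 rose and none fell (median 0.32), and 1 or 2 rose with any 1 KO library left out. The summed level of all 25 was 37.6 and 40.9 FPKM in KO c-KIT+ cells and 29.1 and 30.6 FPKM in KO SSCs. Hspa2, a chaperone of spermatocytes, was at 14.4 and 14.3 FPKM in KO c-KIT+ cells and 8.01 and 7.70 FPKM in KO SSCs (0.80).

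Of 43 tested DNA replication genes 30 did not pass, 9 (20.9%) rose and 4 (9.3%) fell, beside 24.6% and 16% of all genes. Of 39 mitosis and spindle genes 24 did not pass, 4 (10.3%) rose (1 without KO c-KIT+ replicate 2 or KO SSC replicate 2) and 11 (28.2%) fell. These counts changed with the setting. Fewer replication and mitotic genes were called lower with any 1 KO library left out, which leaves 1 library in its group. With an equal total 4 replication genes were higher and 6 mitotic genes lower. With median-ratio scaling 9 replication and 17 mitotic genes were lower. Of 27 tested regulators of the G1/S step, 8 (29.6%) fell and 4 (14.8%) rose (2 rose without KO c-KIT+ replicate 2 or KO SSC replicate 2). Cdk2, a kinase with a further role in meiosis, was at 46.9 and 54.9 FPKM in KO c-KIT+ cells and 28.8 and 28.5 FPKM in KO SSCs (0.80), whereas Cdk4 (-0.44), the partner of the D-type cyclins, and the CDK inhibitor Cdkn1a (-0.92) fell along with Ccnd1 and Ccnd2. Of the replication genes Pola1 (0.71) and Gmnn (0.59) rose and Mcm10 (-0.52) fell. The mitotic kinase Aurka (-0.43), the separase gene Espl1 (-0.42) and Cenpf (-0.41) fell by small amounts, and the meiotic cyclin Ccnb3 rose by 0.63.

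Of 12 tested genes of DNA methylation 6 rose and none fell (3 rose without either KO SSC library), led by Dnmt3b, at 22.8 and 22.7 FPKM in KO c-KIT+ cells and 13.4 and 11.99 FPKM in KO SSCs, and the demethylase Tet3 (0.48). Of 31 genes of Polycomb and histone methylation 9 fell and 3 rose. Among subunits of the PRC1 complex, Bmi1 was at 9.94 and 8.99 FPKM in KO c-KIT+ cells and 18.2 and 17.9 FPKM in KO SSCs (-0.87) and Cbx7 fell by 0.72, while the catalytic subunits Ring1 (0.55) and Rnf2 (0.48) rose. Jarid2, a cofactor of PRC2, fell by 0.55. Because ZMYM3 occurs with LSD1, the LSD1, CoREST and MYM genes were counted too, and of 16 tested 4 (25%) rose and 2 (12.5%) fell, beside 24.6% and 16% of all genes. Rcor1, a CoREST scaffold, rose by 0.56 but missed the threshold without KO c-KIT+ replicate 2 (adjusted p = 0.0106, limma) or KO SSC replicate 2 (0.0116), and the count that rose was 1 or 2 without KO c-KIT+ replicate 2 or either KO SSC library. Kdm1b, the relative of LSD1 that mouse oocytes need for imprinting, was at 37.5 and 35.6 FPKM in KO c-KIT+ cells and 52.97 and 50.3 FPKM in KO SSCs (-0.49), and Gse1, a protein found with CoREST, fell by 0.72. Zmym2, another MYM zinc finger gene, was at 16.9 and 19.4 FPKM in KO c-KIT+ cells and 15.1 and 16.2 FPKM in KO SSCs and did not pass (0.20, adjusted p = 0.0383, limma).

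Genes of glycolysis and of cholesterol synthesis fell more often than they rose, while most genes of the respiratory chain did not pass. Of 22 tested glycolysis genes 11 fell and 1 rose (median -0.28). Ldha, the lactate dehydrogenase of most tissues, was at 17.7 and 16.0 FPKM in KO c-KIT+ cells and 43.0 and 44.1 FPKM in KO SSCs (-1.32, SE 0.06, adjusted p = 1.67e-06, limma), Aldoc at 23.6 and 22.3 FPKM in KO c-KIT+ cells and 42.6 and 39.6 FPKM in KO SSCs (-0.81), and the abundant pyruvate kinase gene Pkm2 at 139 and 145 FPKM in KO c-KIT+ cells and 210 and 220 FPKM in KO SSCs (-0.59). Ldhb (-0.998) fell as well, and Pfkl, a subunit of phosphofructokinase, was the gene that rose (0.58). Of 76 tested genes of the respiratory chain and ATP synthase 68 did not pass, 6 rose (2 without either KO SSC library) and 2 fell (5 without KO c-KIT+ replicate 2), with Ndufb7 (0.82) and Sdha (0.43) among those that rose. Of 23 genes of cholesterol synthesis 9 fell and 2 rose (5 and 1 without KO SSC replicate 1), and Mvd, an enzyme of the mevalonate pathway, was among those that fell (-0.68). Genes of amino acid supply also differed: the transporter chains Slc7a5 (66.8 and 71.9 FPKM in KO c-KIT+ cells, 142 and 137 FPKM in KO SSCs, -1.001) and Slc3a2 (-0.61) and the serine synthesis enzyme Phgdh (-0.89) fell, and asparagine synthetase Asns rose by 0.75. Several glycolytic genes, Ldha among them, have processed copies in the mouse genome that may take part of their reads.

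The median log2 fold change was -0.23 for 80 tested cytosolic ribosomal protein genes, of which 11 fell and 1 rose, but the count that fell was 5 without KO c-KIT+ replicate 1 and 6 and 4 with KO SSC replicate 1 or 2 left out. It was 4 with no filter, 17 to 26 under the scaling alternatives and 27 with the replicate block, and most of these genes share reads with processed copies. The gene that rose was Rpl3l, a variant of Rpl3 known from striated muscle (7.33 and 7.78 FPKM in KO c-KIT+ cells, 3.19 and 3.28 FPKM in KO SSCs, 1.01). Of 41 ribosome biogenesis genes 13 fell and 2 rose (7 fell without KO c-KIT+ replicate 1, 5 and 4 with KO SSC replicate 1 or 2 left out, 7 with an equal total and 21 with median-ratio scaling), with Rrp9 (-0.71) and Heatr1 (-0.69) in front. Of 65 genes of translation 17 fell (10 and 8 without KO SSC replicates 1 and 2, 10 with an equal total and 28 with median-ratio scaling) and 9 rose. Eef2k, the kinase that slows elongation, was at 15.7 and 15.2 FPKM in KO c-KIT+ cells and 7.69 and 7.84 FPKM in KO SSCs (0.91), and the cap-binding gene Eif4e3 fell by 0.73. Of 41 proteasome genes 10 fell (5 without KO SSC replicate 2, 6 with an equal total, 19 with median-ratio scaling and 16 with the replicate block) and 2 rose. Psmb9, an immunoproteasome subunit, was at 1.49 and 2.20 FPKM in KO c-KIT+ cells and 4.69 and 5.85 FPKM in KO SSCs (-1.14), and Psma8, the subunit of the spermatoproteasome, was at 20.9 and 23.0 FPKM in KO c-KIT+ cells and 15.2 and 15.3 FPKM in KO SSCs (0.49).

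Of 25 tested apoptosis genes and p53 targets 7 (28%) were higher and 7 (28%) lower, beside 24.6% and 16% of all genes. Pmaip1, which encodes the BH3 protein NOXA, was at 13.4 and 14.98 FPKM in KO c-KIT+ cells and 39.5 and 40.7 FPKM in KO SSCs (-1.44), and Bbc3 (-0.75), which encodes PUMA, Bok (-0.78) and the survival gene Bcl2l1 (-0.55) fell. Apaf1 (0.67), Bcl2l11 (0.66), Bad (0.59) and Trp63 (0.73), the p53 relative that guards oocytes, rose.

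Of 30 tested integrin, cadherin and laminin genes 11 (36.7%) rose and 4 (13.3%) fell (median 0.19), beside 24.6% and 16% of all genes. Lama5, a laminin chain of the basement membrane, was at 25.7 and 24.0 FPKM in KO c-KIT+ cells and 9.43 and 8.48 FPKM in KO SSCs (1.38, SE 0.07, adjusted p = 2.06e-06, limma), and Lama4 was at 4.83 and 5.01 FPKM in KO c-KIT+ cells and 1.54 and 1.52 FPKM in KO SSCs (1.22). The fibronectin receptor chain Itga5 (0.82), Itgb3 (0.68) and N-cadherin, Cdh2 (0.63), rose as well. P-cadherin, Cdh3, was at 6.26 and 6.74 FPKM in KO c-KIT+ cells and 31.2 and 29.2 FPKM in KO SSCs (-2.06, SE 0.06, adjusted p = 2.46e-07, limma), Itgb5 was at 10.6 and 11.1 FPKM in KO c-KIT+ cells and 31.2 and 30.2 FPKM in KO SSCs (-1.43), and Cdh4 fell by 1.26. Of 23 collagen genes 4 (17.4%) rose and 6 (26.1%) fell. Col11a1 (1.15) and Col22a1 (1.09) were higher and Col13a1 lower, at 10.1 and 9.90 FPKM in KO c-KIT+ cells and 29.4 and 29.0 FPKM in KO SSCs (-1.46).

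Markers of other cells were followed because a change in cell mixture would move them. The 29 fibroblast and feeder markers, 27 of them tested, summed to 242.6 and 239.9 FPKM in KO c-KIT+ cells and 249.6 and 250.4 FPKM in KO SSCs. Of these 2 rose and 4 fell, with Col5a1 (-0.73) and S100a4 (-0.79) lower and Fn1 (0.26) higher (adjusted p = 0.0136 without KO SSC replicate 2, limma). All 11 Leydig cell markers were under 1 FPKM in all 4 KO libraries, as were 9 of 13 macrophage and blood markers. Of 22 Sertoli cell markers 10 were under 1 FPKM in all 4 KO libraries, including the defining genes Wt1, Amh and Fshr, and 3 rose (1 without KO SSC replicate 1) and 3 fell, with the iron carrier Trf at 4.31 and 4.90 FPKM in KO c-KIT+ cells and 14.03 and 14.8 FPKM in KO SSCs (-1.46). The 21 Sertoli cell markers with values, 10 of them tested, summed to 319.9 and 346.1 FPKM in KO c-KIT+ cells and 344.3 and 351.2 FPKM in KO SSCs. The 11 endothelial markers summed to 9.62 and 9.90 FPKM in KO c-KIT+ cells and 19.99 and 19.2 FPKM in KO SSCs. Their decrease lay in the VEGF receptors Flt1 (3.46 and 3.30 FPKM in KO c-KIT+ cells, 10.9 and 10.7 FPKM in KO SSCs, -1.43) and Kdr (-1.06), while the 7 markers under 1 FPKM in all 4 KO libraries included Tek and Tie1. The part of a changed mixture in the other results was not tested.

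The X chromosome stood apart in these calls. Of its 473 tested genes 192 (40.6%) rose and 37 (7.82%) fell, against 2749 (23.9%) and 1875 (16.3%) of 11501 autosomal genes, and the median log2 fold change was 0.22 on the X and 0.06 on the autosomes. Among single autosomes the share that rose ran from 18.7% on chromosome 17 to 33.8% on chromosome 14. Known X-linked germ cell genes contributed but did not make up the difference, since 170 of the 436 X-linked genes outside that list (39%) rose. The contrast was present within level classes, at 42.5% of X-linked and 27.1% of autosomal genes with a mean from 1 to 10 FPKM and 37.8% and 21.6% from 10 to 100 FPKM. With any 1 KO library left out, 26.4% to 36.6% of X-linked genes and 15.3% to 20.6% of autosomal genes rose. In WT cells 38.9% of X-linked genes rose and 9.3% fell. Genes of a chromosome are not independent, and no test was made of this share.

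**Figure D4:**
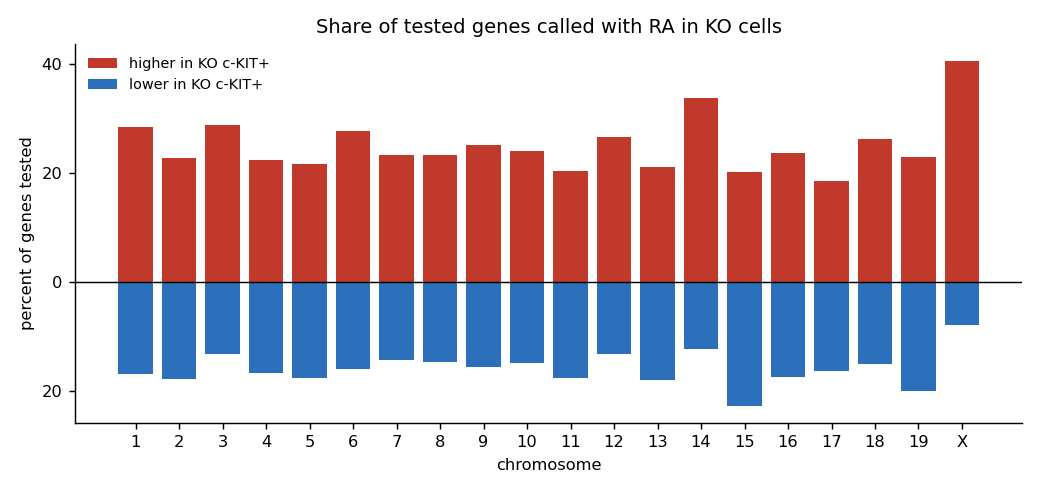
Percent of tested genes on each chromosome called higher (red, upwards) and lower (blue, downwards) in KO c-KIT+ cells than in KO SSCs. The X chromosome has the tallest red bar (40.6%) and the shortest blue bar (7.82%).

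Of 37 tested Rhox and other X-linked germ cell genes 22 rose and 1 fell (median 0.46). Rhox9 was at 5.04 and 4.23 FPKM in KO c-KIT+ cells and 0.523 and 0.356 FPKM in KO SSCs, Rhox10, which in the mouse promotes the formation of SSCs, at 6.08 and 7.84 FPKM in KO c-KIT+ cells and 2.59 and 2.78 FPKM in KO SSCs (1.10), and the MAGE family gene Magea10 at 16.6 and 17.6 FPKM in KO c-KIT+ cells and 7.04 and 7.31 FPKM in KO SSCs (1.15). Rhox3h (1.04) and Rhox6 (1.01) also rose, though copies within the Rhox3 group can share reads. Xlr3a, which has close copies as well, was the gene that fell (-0.57). Zinc finger genes recognised by symbol rose more often than they fell, 89 (24.9%) against 24 (6.7%) of 358. The share that rose was close to the 24.6% of all genes, and the share that fell was below the 16% of all genes. Fewer were called higher with any 1 KO library left out.

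The response of KO cells was set beside that of WT cells by the interaction of RA and genotype. No gene of 11981 was called (0%; limma, smallest adjusted p = 0.123), and 865 had an unadjusted p under 0.05, where 599 would be expected by chance. Of the 2942 genes that rose in KO cells 2928 were also above 0 in WT cells, and of the 1912 that fell 1893 were below 0 in WT cells, whose own calls were 2982 higher (24.9%) and 1900 lower (15.9%). For the genes that mark the transition the differences were small: Stra8 changed by 7.76 in KO and 7.78 in WT cells (interaction -0.02, SE 0.15), Kit by 2.39 in KO and 2.49 in WT cells (-0.10, SE 0.12) and Zbtb16 by -2.37 in KO and -2.33 in WT cells. An interaction that misses the threshold with 2 libraries a group does not show that the responses were equal.

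The 8 genes with the smallest interaction p-values are given as a description. Cbln1, a secreted synaptic organiser, was at 6.45 and 6.46 FPKM in KO c-KIT+ cells and 9.94 and 10.1 FPKM in KO SSCs, and changed by -0.57 in KO cells and 0.31 in WT cells (interaction -0.88, adjusted p = 0.123, limma). Extl1, a glycosyltransferase of the heparan sulfate family, was at 0.17 in KO and -0.68 in WT cells (0.85, adjusted p = 0.123, limma). Its change in KO cells did not pass the test (adjusted p = 0.0949, limma). Means were 2.45 FPKM in KO and 2.52 FPKM in WT c-KIT+ cells, and 2.07 FPKM in KO and 4.64 FPKM in WT SSCs. Prelid2 (-0.14 in KO and 1.30 in WT cells), Raet1d (0.00 in KO and 1.12 in WT cells) and H2-Q2 (0.16 in KO and 1.34 in WT cells) were at most at 1.02 FPKM in every KO library, and the last 2 belong to families with near-identical copies. 4922501L14Rik fell further in KO (-2.04) than in WT cells (-1.21), and Aard (1.34 in KO and 0.40 in WT cells) and the laminin chain Lamb1 (0.44 in KO and 0.02 in WT cells) had the larger value in KO cells. Lamb1 was at 26.8 and 27.7 FPKM in KO c-KIT+ cells and 19.6 and 20.02 FPKM in KO SSCs.

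**Figure D5:**
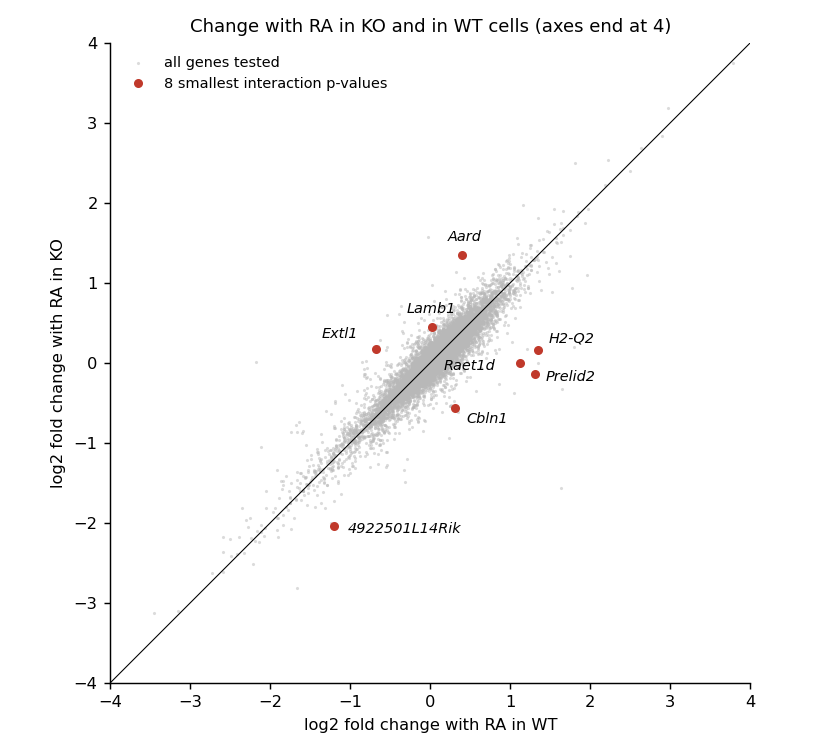
Log2 fold change with RA on FPKM + 1 in KO cells (vertical axis) against that in WT cells (horizontal axis), 1 grey point per gene tested within axes that end at 4, with the line of equal change. The 8 genes with the smallest interaction p-values are in red, and Cbln1 and Extl1 lie on opposite sides of 0 in KO and WT cells.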

How the data were processed

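Total RNA of the cultured cells was sequenced as 2 libraries per group. The deposited FPKM values came from the authors' TopHat2 2.0.6, Cufflinks 2.0.2 and Cuffdiff runs on the mouse build mm9, as named in the submitters' processing notes. The gene annotation and use of strand are not given in the sources used here, so overlapping genes cannot be separated, and no counts were used. Of 23021 entries per library, 728 belonging to 259 symbols listed more than once were dropped, which left 22293, and 25 symbols had become dates. Genes at 1 FPKM or more in at least 2 of 8 libraries were tested on log2(FPKM + 1) with limma 3.58.1 in R 4.3.3, with 4 group means and a variance trend (4 residual and 4.45 prior degrees of freedom), Benjamini-Hochberg adjustment over 11981 genes and a threshold of 0.01. The fit was tested on simulated data. Tables and plots used Python 3.11.15, pandas 2.3.3, numpy 2.4.6, scipy 1.17.1 and matplotlib 3.10.9. Alternatives covered pseudocount, filter, scaling, threshold, variance trend, KO libraries alone, a replicate block and each library left out.

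Named genes were Zmym3, the 4 markers, the 15 largest increases and decreases among called genes whose groups did not overlap (small RNA symbols left out), the 10 largest gains and losses in mean FPKM, the 8 smallest interaction p-values, and the first members and largest changes of each list. Nanos2, Etv5, Mga, L3mbtl2 and Pcgf6 were added after their values were seen, as was the promoter match Blvrb. Members and lists were chosen with earlier results of these data known. Gene positions in mm9 came from a spermatocyte library. Promoters came from RefSeq (GRCm38.p6). The 4 spermatocyte libraries were otherwise not used. A few genes are not reported here.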

Additional observations from a re-analysis of the deposited data

Results flagged for a closer look

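Cbln1 fell with RA in KO cells and rose in WT cells. Extl1 fell in WT cells and did not pass the test in KO cells (0.17, adjusted p = 0.0949, limma). The difference, KO minus WT, was -0.88 for Cbln1 and 0.85 for Extl1 on the log2 scale, and neither passed the interaction test (adjusted p = 0.123 for both, limma).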

How the results depend on the processing

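A minimum fold of 1.5 beside the adjusted p left 898 genes higher and 808 lower. A fit of the KO libraries alone called 2358 genes higher and 1595 lower. With 1 library left out, KO or WT, 1898 to 2861 genes were higher and 1359 to 1870 lower. The interaction, with 0 genes called in the fit reported, called 4 after scaling to an equal FPKM total and 0 to 2 with 1 library left out. The median of all genes, 0.07 as deposited, was 0 under median-ratio scaling. With the replicate number as a block, 3046 genes were higher and 2019 lower, and of the 197 named genes called in KO cells only Hoxb9 missed the threshold (0.37, adjusted p = 0.0127, limma). Same-numbered libraries deviated together weakly (r = 0.283 in KO and 0.169 in WT cells, across 11981 genes), and the labels do not say that a number marks a shared line or batch. Of those 197 genes, 185 held their call under all alternatives that could be computed for them, and 12 did not, namely Ptma, Bola2, Lamp1, Fth1, Utf1, Rcor1, Hoxb4, Hoxb9, Hoxc13, Fn1, Ddx4 and Snord15b. A minimum fold of 1.5 and a looser adjusted p were not among these alternatives. Raet1d, near 0 in all KO libraries, was at -0.00 without KO c-KIT+ replicate 1. Mga was at -0.03 under median-ratio scaling, and L3mbtl2 at 0.01 with totals equalised over all but small RNA genes, 0.00 after quantile normalization and -0.04 to 0.04 with 1 library left out. Neither was called in any of these. The read depth behind single FPKM values is unknown.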
